A study of Mus musculus with 6 samples.

Results

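Collagens are the structural proteins of the extracellular matrix, each a trimer of alpha chains that is encoded by 1 or more alpha chain genes. The members described here were all genes of the count table whose symbol has the form of a collagen alpha chain (Col, a type number, a, a chain number), which gave 44 of 27179 genes. Of these, 42 had enough counts to be tested among 14855 genes. Col9a1 and Col19a1 did not, with at most 23 and 14 counts in any library.

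Expression was measured by bulk RNA sequencing of cancer-associated fibroblasts (CAFs) from 3 mammary tumors of female raGFP-Wnt1 mice. These mice carry an MMTV-Wnt1 transgene, in which the mammary tumor virus promoter drives the oncogene, and a Pdgfra reporter that makes nuclear GFP in cells that use the Pdgfra promoter. The age of the mice was not given in the sources used here. GFP+ cells from each tumor, depleted by flow cytometry of cells with blood, endothelial and leukocyte surface markers, were sorted into CD34 negative and CD34 positive CAFs, 1 library of each per tumor and 6 in all. Both groups therefore share the transgene, the reporter and the tumor, and differ in the surface protein CD34. The comparison addresses how the 2 CAF fractions of a tumor differ in what they express. Whether the 3 tumors came from 3 mice was not stated, so p-values measure the spread between these tumors.

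Collagens are grouped by the structure they build. Fibrillar collagens form the banded fibrils that bear tension, and FACIT collagens decorate the fibril surface. Network collagens make the sheets of basement membranes and of short-chain lattices, type VII forms fibrils that anchor epithelium to the stroma, beaded filament collagens lie around cells, and transmembrane collagens sit in the plasma membrane. Fibroblasts are the main source of interstitial collagen in the mammary gland and its tumors, and the mix of chains that they make changes when they become myofibroblasts.

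Library totals lay between 16238059 and 86609267 counts. In CPM (counts per 1000000 counts of a library, scaled by library total and by the TMM composition factor), Cd34 stood at 79.2, 42.0 and 102 CPM in the CD34 negative libraries of tumors 1, 2 and 3, and at 678, 563 and 1605 CPM in the CD34 positive ones, as the labels state. The CD34 negative library of tumor 3 stood apart: it lacked any count of 161 genes whose mean over the 5 other libraries was 2 CPM or more, where the others each lacked 1 to 31 such genes, and it held counts of 37 of the 44 collagen genes against 42 or 43. The fibroblast markers Dcn, Lum, Pdgfra and Igfbp5 summed to 9983, 3941 and 5963 CPM in the CD34 negative libraries of tumors 1, 2 and 3 and to 17120, 6393 and 14570 CPM in the CD34 positive ones (scaled by library total alone, as are all sums of markers), so the sum was lower in the CD34 negative library of each tumor, as was each of the 4 genes. Ptprc, which marks all leukocytes, was at most 0.481 CPM. Sums of 4 endothelial markers (6.09 to 27.2 CPM), 4 Schwann cell markers (6.07 to 16.4 CPM), 5 macrophage markers (8.93 to 16.3 CPM) and 6 cartilage and bone markers (64.9 to 77.1 CPM) overlapped between the groups. So did the sum of 6 epithelial markers, but it was the higher in the CD34 negative library of each tumor, at 135, 122 and 51.7 CPM against 131, 76.9 and 17.9 CPM, as were Krt8, Krt18 and Krt5 each, the last with no overlap. Epcam was higher in tumors 2 and 3 and nearly level in tumor 1, where its direction depended on the scaling. Krt14 and Itga6 were lower in the CD34 negative library of tumor 1 and higher in those of tumors 2 and 3. The 4 pericyte markers summed to 29.9 to 112 CPM with overlap, but went opposite ways. Rgs5 (4.08, 3.72 and 10.7 CPM against 1.18, 1.03 and 0.247 CPM) and Mcam (45.6, 37.7 and 34.6 CPM against 16.4, 8.57 and 3.99 CPM) were higher in CD34 negative libraries with no overlap, and Kcnj8 and Abcc9 were lower in the CD34 negative library of each tumor. With the tumor block, Mcam, Kcnj8 and Abcc9 passed (limma-voom adjusted p = 0.00251, 0.0161 and 0.0123) and Rgs5 did not (0.0803). Of 4 muscle markers, Myf5 was at 0 and Myog at or near 0 in all libraries. The 4 summed to 2.80, 5.04 and 13.7 CPM against 1.85, 1.50 and 1.65 CPM, nearly all of it Des in the CD34 negative libraries. Des was higher in CD34 negative libraries with no overlap, and it passed with the tumor block (limma-voom adjusted p = 0.0362). The part of these other cells in the results was not tested, and in bulk samples fewer cells of a type and less RNA per cell cannot be told apart.

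The share of all counts that fell on collagen genes overlapped between the fractions, while the shares of Col3a1 and of Col1a1 within it did not. Collagen genes took 12.7%, 11.4% and 10.5% of all counts in the CD34 negative libraries of tumors 1, 2 and 3, and 9.52%, 12.2% and 11.1% in the CD34 positive ones. The difference of the means was 0.566 percentage points (two-sided exact permutation test, n = 3 per group, p = 0.6, where the smallest possible p is 0.1), and its sign turned when the CD34 positive library of tumor 1 was left out (-0.146 points) and when the CD34 negative one of tumor 1 was (-0.0131 points). The permutation test did not use the pairing by tumor. Within tumors 1, 2 and 3 the difference was 3.15, -0.795 and -0.656 points.

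Per length of transcript, which allows levels of different genes to be compared, Col3a1, Col1a2, Col1a1 and Col5a2 were the 4 most abundant chains on average. Fibrillar chains made up 76.5%, 75.0% and 75.9% of all collagen reads per kilobase in CD34 negative CAFs and 77.4%, 82.1% and 85.0% in CD34 positive CAFs. The 2 ranges did not overlap. Col3a1 alone, the only chain of type III collagen, made up 25.6%, 26.0% and 27.4% of collagen reads per kilobase in CD34 negative CAFs and 37.3%, 41.3% and 47.8% in CD34 positive CAFs. Col1a1, the major chain of type I collagen, took 19.7%, 19.6% and 20.0% against 14.3%, 16.9% and 14.8%. Col3a1 was thus the single chain with the largest share in all 6 libraries, with a larger one in every CD34 positive library than in any CD34 negative library. These shares are parts of a whole, so a higher share of one chain lowers the others.

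**Figure D1:**
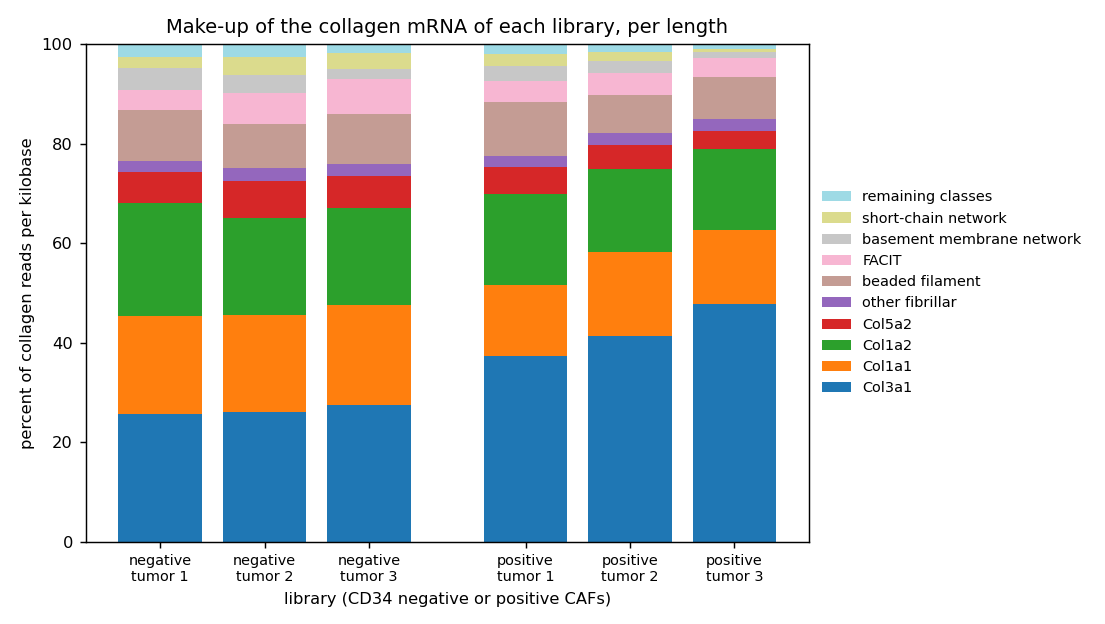
Stacked bars give, for each of the 6 libraries, the percent of collagen reads per kilobase that fell on the 4 most abundant chains, on the other fibrillar chains and on the other classes of collagen (vertical axis, 0 to 100 percent). The Col3a1 part at the base reaches 25.6% to 27.4% in CD34 negative libraries and 37.3% to 47.8% in CD34 positive libraries.

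Across the 42 tested collagen genes, the test without a term for the tumor (limma-voom, two-sided, adjusted over all genes tested, threshold 0.05) made no call, with 11 genes at an unadjusted p under 0.05. In the same test 0.121% of all genes tested passed, 0.0202% higher and 0.101% lower in CD34 negative CAFs. edgeR's quasi-likelihood test also called 0, with 10 genes at an unadjusted p under 0.05, beside 0.0606% of all genes tested. DESeq2 called 8, beside 4.7%. When the tumor was added as a block, so that the 2 fractions of a tumor were compared with each other, limma-voom called 13 collagen genes. Of the 42, 10 (23.8%) were higher in CD34 negative CAFs, beside 4.32% of all genes tested, and 3 (7.14%) were lower, beside 4.25%, with 8.57% of all genes called in either direction. The 10 were Col5a2 and Col11a1 (fibrillar), Col12a1 and Col16a1 (FACIT), Col4a2, Col15a1, Col7a1, Col8a2, Col10a1 and Col23a1. The 3 lower ones were Col14a1 (FACIT), Col6a6 and Col28a1 (beaded filament). Col7a1, Col23a1, Col28a1 and Col6a6 also passed with the tumor as a block in edgeR and DESeq2 and with the tumor as a random effect in limma-voom, fits that called 3.87%, 11.7% and 4.73% of all genes tested. The block fit left 2 residual degrees of freedom per gene, so its errors rest in part on the spread shared across genes.

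The groups did not overlap, with every CD34 negative library above every CD34 positive one, for 9 collagen genes (21.4%) beside 10.4% of all genes tested, and did so the other way round for 5 (11.9%) beside 10%, a share near that of all genes. Within tumors, 21 collagen genes (50.0%) were higher in the CD34 negative library of all 3 tumors, beside 22.8% of all genes tested, and 6 (14.3%) were lower in all 3, beside 23.4%. The median log2 difference over the collagen genes, CD34 negative minus CD34 positive, was 0.29 without the block and 0.35 with it, against -0.03 and -0.01 over all genes tested. The median was 0.56 in tumor 1, 0.29 in tumor 2 and 0.17 in tumor 3, and 0.09 without the CD34 negative library of tumor 1 and 0.67 without that of tumor 3.

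**Figure D2:**
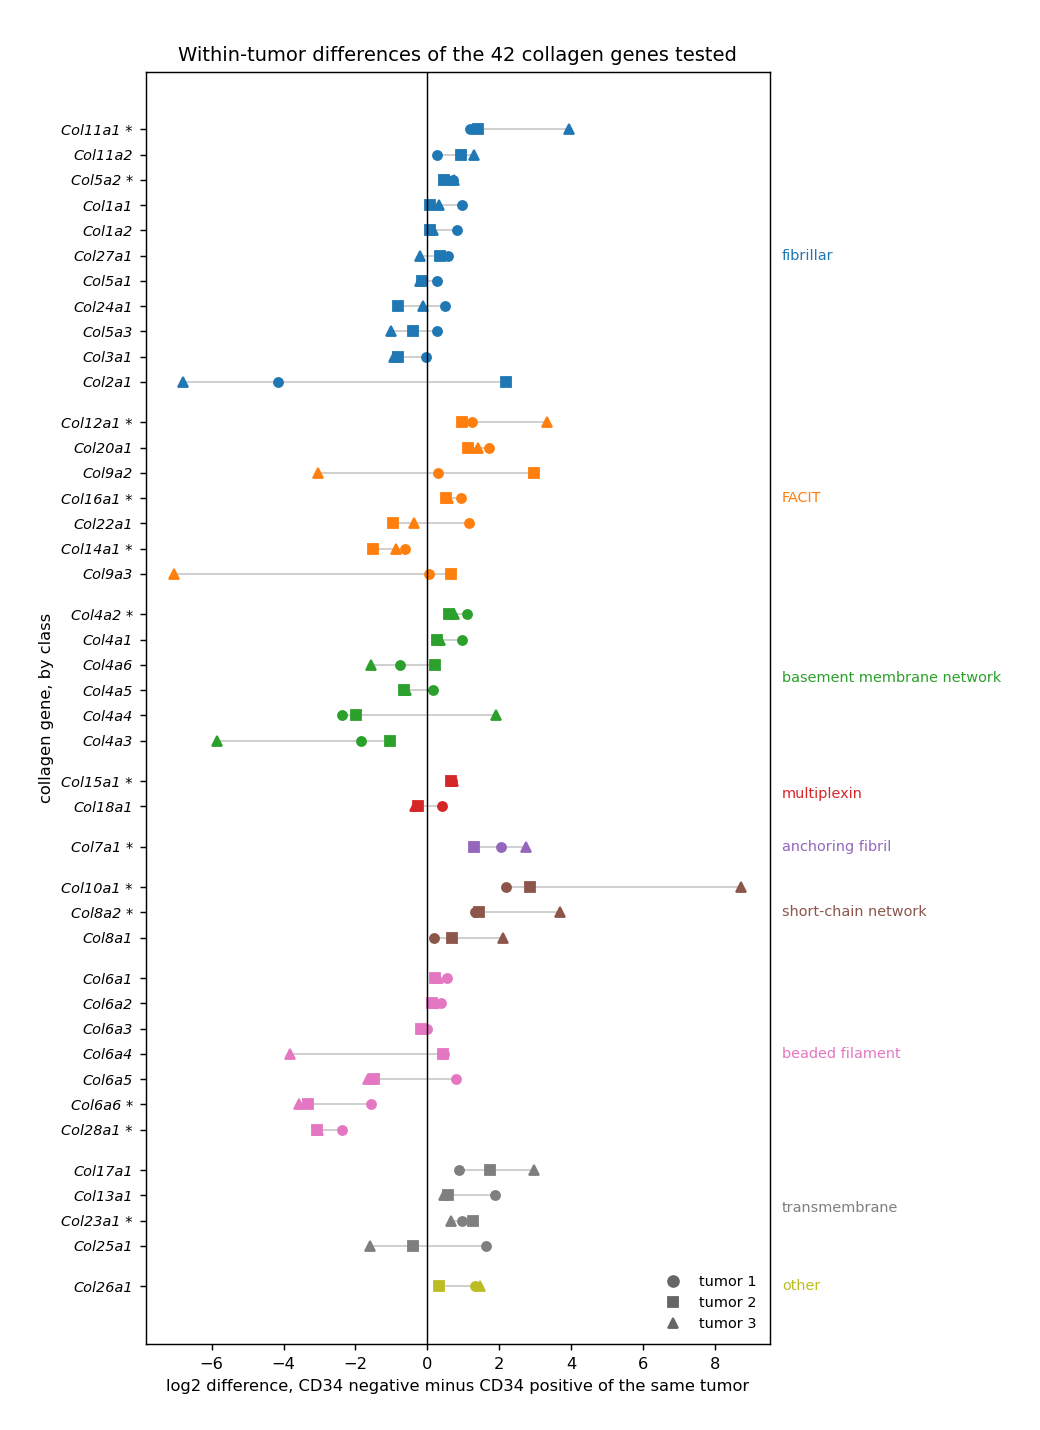
For each of the 42 tested collagen genes, grouped by class and ordered by fold change, symbols give the log2 difference between the CD34 negative and the CD34 positive library of tumors 1, 2 and 3, and a star marks an adjusted p under 0.05 with a tumor block. The 3 symbols of Col7a1, Col8a2, Col10a1, Col11a1 and Col12a1 lie right of 0, those of Col28a1, Col6a6 and Col14a1 left of it, and the spread is widest for genes with few counts such as Col9a3 and Col2a1.

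Among the 11 fibrillar genes, the abundant chains of types I and III did not pass in limma-voom over all 3 tumors, while Col11a1 and Col5a2 were higher in CD34 negative CAFs with the block. Col3a1 (chr1:45311538-45349706, plus strand of GRCm38.p6, as all positions here) stood at 35100, 28840 and 27440 CPM in the CD34 negative libraries of tumors 1, 2 and 3 and at 36160, 51050 and 51890 CPM in the CD34 positive ones. The groups did not overlap, but the libraries of tumor 1 were almost level. Its log2 fold change was -0.59 ± 0.26 (SE, n = 3 per group; limma-voom adjusted p = 0.353), and -0.59 ± 0.19 with the block (adjusted p = 0.0877; DESeq2 with the block, 0.0223). Without tumor 1, limma-voom with the block gave -0.87 (adjusted p = 0.00135).

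Col1a1 (chr11:94936224-94953042) stood at 22780, 18380 and 16980 CPM in CD34 negative and at 11720, 17640 and 13590 CPM in CD34 positive CAFs. Its partner in the type I trimer, Col1a2 (chr6:4505618-4541543, plus strand), stood at 28760, 19990 and 18100 CPM against 16380, 19050 and 16360 CPM. Both overlapped between the groups, and both were higher in the CD34 negative library of all 3 tumors, mainly in tumor 1. The log2 fold changes were 0.47 ± 0.25 for Col1a1 and 0.35 ± 0.26 for Col1a2, with limma-voom adjusted p of 0.447 and 0.579, and 0.166 and 0.271 with the block.

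Col5a2, a chain of type V collagen that is built into type I fibrils and limits their width, is the neighbour of Col3a1, at chr1:45374331-45503282 with 24.6 kb between both genes. It stood at 10250, 9778 and 7708 CPM in CD34 negative and at 6257, 7117 and 4624 CPM in CD34 positive CAFs, with no overlap. The log2 fold change was 0.64 ± 0.25 (limma-voom adjusted p = 0.302), and 0.64 ± 0.13 with the block (adjusted p = 0.0186). With the block, the adjusted p of Col5a2 was 0.0864 in edgeR and 0.000127 in DESeq2. With the tumor as a random effect in limma-voom it was 0.0821. Without tumor 2 the limma-voom adjusted p with the block was 0.0926. Thus 2 neighbouring and abundant fibrillar genes had fold changes of opposite sign.

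Col11a1 (chr3:114030479-114220756, plus strand) encodes a chain of type XI collagen, best known from cartilage fibrils and as a marker of activated fibroblasts in carcinomas. It stood at 857, 505 and 482 CPM in the CD34 negative libraries and at 377, 190 and 31.6 CPM in the CD34 positive ones. Each CD34 negative library lay above all CD34 positive ones, and the CD34 positive library of tumor 3 was by far the lowest. This gave a log2 fold change of 2.22 ± 0.82 (limma-voom adjusted p = 0.286), 2.08 ± 0.41 with the block (adjusted p = 0.0155, against 0.0883 in edgeR and 0.0531 in DESeq2 with the block), 1.11 without the CD34 positive library of tumor 3 and 2.87 without that of tumor 1. Of 6 cartilage and bone markers, Acan was at most 3.77 CPM and Ibsp, Bglap and Sp7 were at or near 0, Sox9 stood at 16.0, 13.3 and 20.8 CPM in CD34 negative and at 30.3, 24.5 and 23.9 CPM in CD34 positive CAFs, and Runx2 at 38.4 to 64.2 CPM with overlap. Their part in the result was not tested.

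The other 6 fibrillar genes, Col5a1, Col5a3, Col27a1, Col24a1, Col11a2 and Col2a1, did not pass with or without the block. Col5a1, which encodes the partner of Col5a2, had a log2 fold change of 0.00 ± 0.23. Col2a1, the collagen of cartilage, had at most 43 counts in any library.

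FACIT collagens split, with 2 genes higher and 1 lower in CD34 negative CAFs with the block out of 7 tested. Of all genes tested, 4.32% were higher and 4.25% lower in that fit. Col12a1 (chr9:79598987-79721141), whose product binds type I fibrils and is made in dense and stressed tissue, stood at 6357, 10870 and 9815 CPM in CD34 negative and at 2683, 5536 and 984 CPM in CD34 positive CAFs. The lowest CD34 negative library was above the highest CD34 positive one. The difference was 1.91 ± 0.57 on the log2 scale (limma-voom adjusted p = 0.189), and 1.88 ± 0.37 with the block (adjusted p = 0.0147, against 0.0886 in edgeR and 0.0976 in DESeq2 with the block). It was 1.24 without the CD34 positive library of tumor 3 and 1.17 without tumor 3.

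Col14a1 (chr15:55307644-55520803), a close relative of Col12a1 whose product also binds fibrils and limits their growth, showed the reverse. It stood at 1634, 905 and 1983 CPM in CD34 negative and at 2523, 2579 and 3638 CPM in CD34 positive CAFs, again with no overlap. It differed by -1.0 ± 0.32 on the log2 scale (limma-voom adjusted p = 0.218), and by -1.0 ± 0.17 with the block (adjusted p = 0.00853). With the block, the adjusted p of Col14a1 was 0.052 in edgeR and 8.37e-06 in DESeq2. With the tumor as a random effect in limma-voom it was 0.0506. Within a library, the Col12a1 to Col14a1 ratio of reads per kilobase was 2.15, 6.65 and 2.74 in CD34 negative CAFs and 0.588, 1.19 and 0.150 in CD34 positive CAFs. Col12a1 was thus the more abundant of the pair in all 3 CD34 negative libraries, and Col14a1 in the CD34 positive libraries of tumors 1 and 3.

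Col16a1 (chr4:130047817-130099277, plus strand), a fibril-associated chain found in several tissues, stood at 1084, 896 and 745 CPM against 567, 624 and 497 CPM, with no overlap. Its log2 fold change was 0.68 ± 0.20 (limma-voom adjusted p = 0.189), and 0.68 ± 0.13 with the block (adjusted p = 0.0147, against 0.0665 in edgeR with the block). Of the others, Col20a1 was low. It stood at 4.58, 3.92 and 6.93 CPM in CD34 negative and at 1.36, 1.79 and 2.61 CPM in CD34 positive CAFs, with no overlap. Col20a1 did not pass (limma-voom adjusted p = 0.247, and 0.116 with the block). The study lists it among its Schwann cell markers, and it is not part of the Schwann cell sum given here. Col9a2, Col9a3 and Col22a1 stayed under 5 CPM. Col9a3 had no count in the CD34 negative library of tumor 3, below a floor of 0.085 CPM (3 counts), while it was level or higher in the CD34 negative library of the other tumors. Col22a1 had no count in either library of tumor 3.

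**Figure D3:**
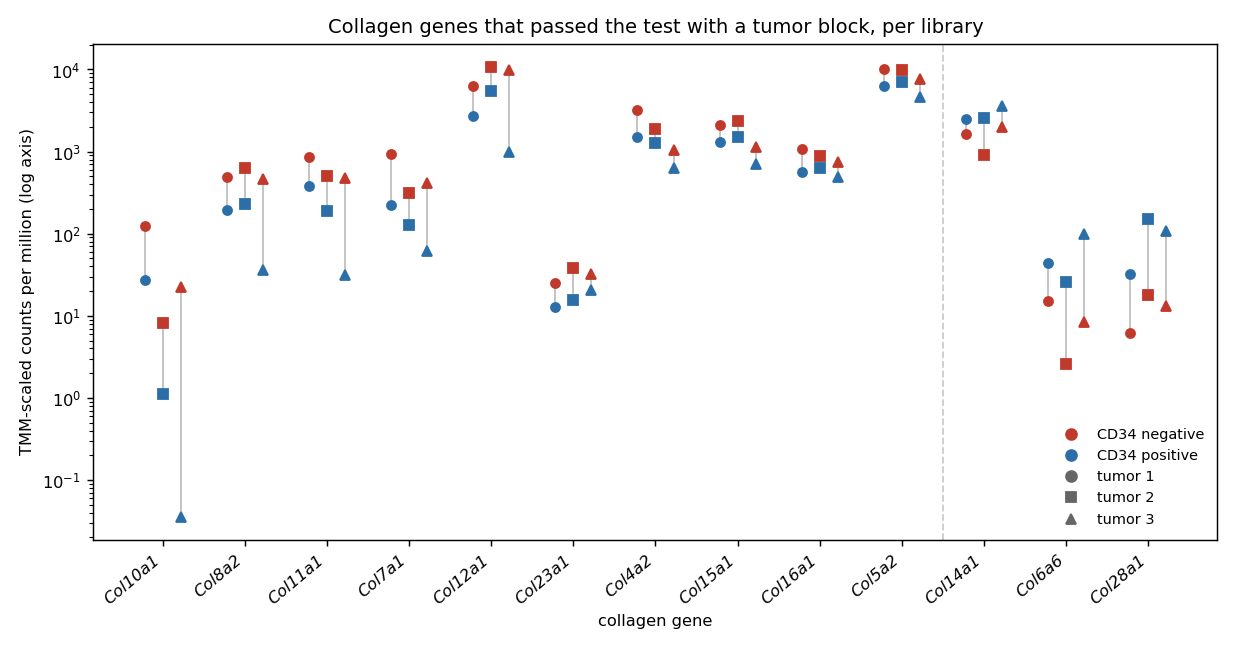
Points give the TMM-scaled CPM (log axis) of the 13 collagen genes that passed the test with a tumor block, in red for CD34 negative and blue for CD34 positive libraries, and a line joins the 2 libraries of a tumor. Genes left of the dashed line were higher in CD34 negative CAFs, from Col10a1 to Col5a2, and those right of it lower, and the lowest point is the single Col10a1 count of the CD34 positive library of tumor 3.

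Of the 6 genes of type IV collagen, the scaffold of basement membranes, Col4a1 and Col4a2 were abundant and the other 4 were not. Both abundant chains join in 1 trimer, and their genes lie head to head on chromosome 8, Col4a1 at chr8:11198423-11312889 on the minus strand and Col4a2 at chr8:11312805-11449287 on the plus strand. In RefSeq the 2 genes overlap by 85 bases at their 5′ ends. The start used for the promoter window of Col4a1 was chr8:11312826, inside the span of its gene. That of Col4a2 was chr8:11312805, at the 5′ end of its span. The promoter windows of both genes (250 bases before to 50 after each start, from RefSeq) are shown because they cover 1 common stretch: each is given 5′ to 3′ on its gene's own strand, with the 78 bases that the windows share (chr8:11312777-11312854) in capitals, which read as reverse complements of each other.
Col4a1 (chr8:11312777-11313076, minus strand): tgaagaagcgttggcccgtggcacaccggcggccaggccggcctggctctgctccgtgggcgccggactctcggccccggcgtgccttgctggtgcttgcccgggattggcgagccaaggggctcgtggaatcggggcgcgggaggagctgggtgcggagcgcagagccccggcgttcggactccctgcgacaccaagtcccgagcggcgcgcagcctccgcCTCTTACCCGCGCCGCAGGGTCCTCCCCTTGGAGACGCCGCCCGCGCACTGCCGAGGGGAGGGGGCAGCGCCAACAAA
Col4a2 (chr8:11312555-11312854, plus strand): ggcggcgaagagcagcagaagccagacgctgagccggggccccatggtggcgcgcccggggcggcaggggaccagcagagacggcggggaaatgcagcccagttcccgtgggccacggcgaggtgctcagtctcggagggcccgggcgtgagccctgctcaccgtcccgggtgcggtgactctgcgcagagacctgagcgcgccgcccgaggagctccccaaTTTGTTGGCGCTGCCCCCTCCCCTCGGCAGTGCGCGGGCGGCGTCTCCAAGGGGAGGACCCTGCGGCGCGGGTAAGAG

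Col4a1 stood at 3914, 2625 and 1199 CPM in the CD34 negative libraries of tumors 1, 2 and 3 and at 2014, 2187 and 931 CPM in the CD34 positive ones. Col4a2 stood at 3198, 1894 and 1052 CPM against 1495, 1255 and 634 CPM. The groups overlapped for both genes, because levels differed between tumors in both fractions, while in each tumor the CD34 negative library was the higher. The log2 fold changes without the block were 0.52 ± 0.47 for Col4a1 and 0.79 ± 0.45 for Col4a2, with limma-voom adjusted p of 0.653 and 0.468. With the block, Col4a2 passed at 0.81 ± 0.14 (adjusted p = 0.00861; 0.0512 in edgeR with the block) and Col4a1 did not, at 0.53 ± 0.16 (adjusted p = 0.0745; 0.0342 in DESeq2 with the block, and 0.0415 in limma-voom with the block without tumor 3). The Col4a1 to Col4a2 ratio of reads per kilobase was 1.19, 1.35 and 1.11 in CD34 negative CAFs and 1.31, 1.69 and 1.43 in CD34 positive CAFs, with overlap. Beside these values, the sum of epithelial markers moved in the same direction in each tumor. Of the pericyte markers, Rgs5 and Mcam did so too, while Kcnj8 and Abcc9 moved the other way in each tumor. The pericyte sum was 60.9, 51.1 and 78.0 CPM against 112, 29.9 and 87.7 CPM. That of the endothelial markers was 17.8, 9.18 and 6.09 CPM against 27.2, 7.79 and 7.54 CPM, so neither of these 2 sums moved the same way in each tumor. Their part in the result was not tested.

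Col4a3, Col4a4, Col4a5 and Col4a6 stood at most at 50.2 CPM, the level of Col4a5 in the CD34 negative library of tumor 1, and did not pass with or without the block. Col4a3 and Col4a4 also overlap at their 5′ ends, by 114 bases, and whether the counting used strand was not stated.

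Both multiplexins, collagens of basement membrane zones that carry the precursors of soluble inhibitors of vessel growth, had been discussed by the study for the normal gland. Col15a1 (chr4:47207655-47313167, plus strand) stood at 2090, 2383 and 1135 CPM in CD34 negative and at 1297, 1509 and 699 CPM in CD34 positive CAFs. The groups overlapped, but the difference within a tumor was nearly the same in each, at 0.69, 0.66 and 0.70 on the log2 scale. The log2 fold change was 0.69 ± 0.37 (limma-voom adjusted p = 0.438), and 0.68 ± 0.12 with the block (adjusted p = 0.00981; 0.0526 in edgeR with the block, and 0.0725 in limma-voom without tumor 2). Col18a1 (chr10:77052178-77166530, minus strand) stood at 514, 245 and 246 CPM against 388, 296 and 313 CPM, with overlap. It was higher in the CD34 negative library of tumor 1 and lower in those of tumors 2 and 3. Its log2 fold change was -0.10 ± 0.30 (limma-voom adjusted p = 0.909; 0.851 with the block), and its sign differed between tools.

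Col7a1, at chr9:108953586-108984875 on the plus strand, is the one gene of the anchoring fibrils. It stood at 927, 315 and 413 CPM in CD34 negative CAFs and at 226, 129 and 62.4 CPM in CD34 positive CAFs, with no overlap. Col7a1 had a log2 fold change of 2.03 ± 0.52 (limma-voom adjusted p = 0.145), and 1.99 ± 0.23 with the block (adjusted p = 0.00154, with 0.0213 in edgeR and 7.44e-13 in DESeq2, both with the block). Basal epithelial cells also make type VII collagen. Of their keratins, Krt5 stood at 4.06, 6.55 and 3.38 CPM in CD34 negative and at 3.22, 2.51 and 0.847 CPM in CD34 positive libraries, with no overlap, and Krt14 at 14.2, 24.5 and 12.2 CPM against 22.4, 15.8 and 3.81 CPM, with overlap. Their part in the result was not tested.

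All 3 short-chain collagen genes had higher levels in the CD34 negative library of each tumor, beside 22.8% of all genes tested. With the block 2 passed as higher, beside 4.32% of all genes tested. Col8a2 (chr4:126286794-126314330, plus strand), a chain of the type VIII lattice found around vessels and below the cornea, stood at 488, 626 and 463 CPM against 195, 229 and 35.8 CPM, with no overlap. Its log2 fold change was 2.21 ± 0.65 (limma-voom adjusted p = 0.186), 2.10 ± 0.37 with the block (adjusted p = 0.00962; 0.0647 in edgeR with the block), and 1.31 without the CD34 positive library of tumor 3. The other type VIII chain, Col8a1, was the more abundant per length in all 6 libraries. The Col8a1 to Col8a2 ratio of reads per kilobase was 3.59, 3.93 and 4.45 in CD34 negative and 7.87, 6.65 and 13.4 in CD34 positive CAFs, a pair chosen after its values were seen.

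Col10a1 (chr10:34389981-34397085, plus strand), the collagen of hypertrophic cartilage, was low and very uneven. It stood at 125, 8.08 and 22.4 CPM in CD34 negative and at 27.5, 1.11 and 0.0353 CPM in CD34 positive CAFs. The groups overlapped, because both libraries of tumor 1 were high. In tumor 3 the CD34 negative library had 814 counts and the CD34 positive one 1 count, a ratio of CPM (scaled by library total) of 627 with an exact 95% interval of 112 to 24800, which covers counting error only. The log2 fold change was 5.05 ± 2.46 (limma-voom adjusted p = 0.395), and 2.59 ± 0.57 with the block (adjusted p = 0.0235, against 0.0806 in edgeR and 0.0623 in DESeq2, both with the block, and 0.135 in limma-voom without tumor 1). Leaving out libraries or tumors moved the value without the block between 3.66 and 6.62. Col10a1 lies within the span of Nt5dc1, which had 3158 counts over all libraries against 8724 of Col10a1, so reads of the 2 genes may not be fully separated.

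In the beaded filament class, the 3 abundant type VI chains, which form the filaments around most connective tissue cells, did not pass with or without the block. Of the others, 2 scarce genes were lower in CD34 negative CAFs with the block, beside 4.25% of all genes tested. Col6a1 (chr10:76708792-76726044, minus strand) stood at 4434, 2940 and 2941 CPM in CD34 negative and at 3054, 2527 and 2409 CPM in CD34 positive CAFs. Col6a2 (chr10:76595756-76623630, minus strand), its neighbour at a distance of 85.2 kb, stood at 4350, 3040 and 3017 CPM against 3363, 2807 and 2644 CPM. Both overlapped between groups, with log2 fold changes of 0.33 ± 0.24 and 0.21 ± 0.23 (limma-voom adjusted p = 0.565 and 0.716; 0.146 and 0.342 with the block). Their ratio of reads per kilobase hardly varied, at 0.956, 0.907 and 0.914 in CD34 negative and 0.852, 0.844 and 0.855 in CD34 positive CAFs, yet the groups did not overlap.

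Col28a1 (chr6:7997100-8193709, minus strand), a relative of type VI collagen known from peripheral nerve, showed the lowest p of all collagen genes with the block. It stood at 6.13, 18.2 and 13.2 CPM in the CD34 negative libraries and at 32.1, 153 and 108 CPM in the CD34 positive ones, with no overlap. The log2 fold change was -2.97 ± 0.65 (limma-voom adjusted p = 0.104; 5.31e-06 in DESeq2), and -2.93 ± 0.20 with the block (adjusted p = 0.000117; 0.00438 in edgeR with the block). Without tumor 1 it passed also with no block, at -3.03 (limma-voom adjusted p = 0.00818), as did Col7a1 at 1.98 (adjusted p = 0.0409), and without the CD34 positive library of tumor 1 Col28a1 alone passed, at -3.56 (adjusted p = 0.0289). The sum of Schwann cell markers overlapped between the groups.

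Col6a6 (chr9:105689417-105828246, minus strand), one of the later described type VI chains, whose gene lies in a row with Col6a5 and Col6a4, stood at 15.0, 2.59 and 8.36 CPM in CD34 negative and at 44.0, 26.0 and 99.4 CPM in CD34 positive CAFs, with no overlap. Its log2 fold change was -2.70 ± 0.73 (limma-voom adjusted p = 0.160), and -2.65 ± 0.38 with the block (adjusted p = 0.0039; 0.0248 in edgeR with the block). It was -3.40 without the CD34 negative library of tumor 1, -2.0 without that of tumor 2 and -2.11 without the CD34 positive library of tumor 3. Its neighbour Col6a5 was higher in the CD34 negative library of tumor 1 and lower in those of tumors 2 and 3, with a log2 fold change of -0.64 ± 0.82 (limma-voom adjusted p = 0.760; 0.245 with the block). Col6a4 had at most 45 counts in any library.

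Of the 4 transmembrane collagen genes, only Col23a1 passed with the block, beside 8.57% of all genes tested. Col23a1 (chr11:51289679-51583925, plus strand), whose product is shed from the cell surface, stood at 25.0, 38.1 and 32.7 CPM in CD34 negative and at 12.9, 15.7 and 20.6 CPM in CD34 positive CAFs, with no overlap. Col23a1 had a log2 fold change of 0.93 ± 0.25 (limma-voom adjusted p = 0.158), and 1.03 ± 0.20 with the block (adjusted p = 0.0143, with 0.0497 in edgeR with the block, and 0.300 in limma-voom without tumor 2). Col13a1 and Col17a1 were also higher in the CD34 negative library of all 3 tumors but did not pass (limma-voom adjusted p with the block, 0.0733 and 0.0900), and Col25a1 differed in sign between tumors. Col26a1, outside these classes, did not pass with the block (limma-voom adjusted p = 0.121).

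Ratios between chains within a library do not depend on the scaling between libraries. The Col1a1 to Col1a2 ratio of reads per kilobase, 0.865, 1.00 and 1.03 in CD34 negative and 0.781, 1.01 and 0.907 in CD34 positive CAFs, overlapped between groups. The Col3a1 to Col1a1 ratio, chosen after its values were seen, was 1.30, 1.33 and 1.37 against 2.61, 2.45 and 3.23. Type III reads thus exceeded type I alpha 1 reads in all 6 libraries, with the larger ratio in each CD34 positive library. The Col5a1 to Col5a2 ratio, of partners in the type V trimer, was 0.167, 0.209 and 0.221 in CD34 negative and 0.227, 0.320 and 0.423 in CD34 positive CAFs, with no overlap. The Col5a2 to Col3a1 ratio, of neighbouring genes, was 0.246, 0.285 and 0.236 in CD34 negative and 0.145, 0.117 and 0.0750 in CD34 positive CAFs, with no overlap. The Col11a1 to Col5a1 ratio, of chains that can share a trimer, was 0.455, 0.224 and 0.257 against 0.241, 0.0757 and 0.0147, with overlap.

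**Figure D4:**
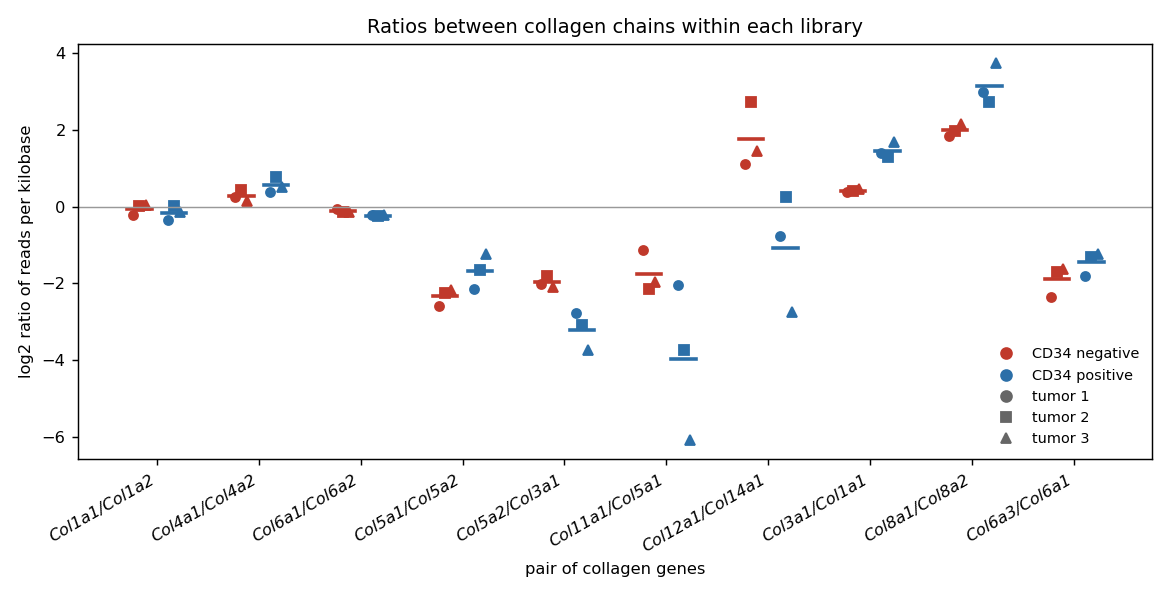
Points give the log2 ratio of reads per kilobase of 10 pairs of collagen genes in each library, red for CD34 negative and blue for CD34 positive CAFs, with horizontal bars at the group means and symbols for tumors 1, 2 and 3, and the last 3 pairs were chosen after their values were seen. The ratios of Col1a1/Col1a2, Col4a1/Col4a2, and Col6a1/Col6a2 lie within 1 of 0 in both groups while that of Col5a1/Col5a2 lies between -2.58 and -1.24, and those of Col5a1/Col5a2, Col6a1/Col6a2, Col12a1/Col14a1, Col3a1/Col1a1, Col5a2/Col3a1 and Col8a1/Col8a2 do not overlap between groups.

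The promoter windows of further called members are shown to set those higher in CD34 negative CAFs (Col11a1, Col8a2) beside those lower (Col6a6, Col28a1). Windows of 300 bases were at hand for 35 of the 44 collagen genes. Capitals mark matches, on either strand, to 5 motifs: the CCAAT box, the TATA box TATAAA, the AP-1 motif TGANTCA, the TEAD motif CATTCC and the GC box GGGCGG.
Col11a1 (chr3:114030290-114030589, plus strand): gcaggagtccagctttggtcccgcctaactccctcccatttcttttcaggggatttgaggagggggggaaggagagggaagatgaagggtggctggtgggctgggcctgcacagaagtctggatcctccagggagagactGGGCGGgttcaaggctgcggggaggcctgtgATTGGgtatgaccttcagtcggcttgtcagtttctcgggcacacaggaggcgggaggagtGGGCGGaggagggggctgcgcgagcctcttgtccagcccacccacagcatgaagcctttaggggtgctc
Col8a2 (chr4:126286544-126286843, plus strand): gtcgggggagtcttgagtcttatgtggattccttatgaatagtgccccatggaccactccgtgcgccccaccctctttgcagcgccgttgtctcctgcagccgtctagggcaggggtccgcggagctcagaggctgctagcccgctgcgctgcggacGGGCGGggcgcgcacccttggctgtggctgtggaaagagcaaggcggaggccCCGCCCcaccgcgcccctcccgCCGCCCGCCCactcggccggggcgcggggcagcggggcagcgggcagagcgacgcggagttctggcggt
Col6a6 (chr9:105828036-105828335, minus strand): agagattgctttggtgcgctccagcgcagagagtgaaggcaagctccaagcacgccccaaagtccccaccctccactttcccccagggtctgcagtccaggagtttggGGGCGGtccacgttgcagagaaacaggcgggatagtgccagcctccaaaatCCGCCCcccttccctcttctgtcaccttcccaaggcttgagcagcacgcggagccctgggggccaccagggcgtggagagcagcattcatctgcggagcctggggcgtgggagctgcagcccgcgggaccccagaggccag
Col28a1 (chr6:8192568-8192867, minus strand): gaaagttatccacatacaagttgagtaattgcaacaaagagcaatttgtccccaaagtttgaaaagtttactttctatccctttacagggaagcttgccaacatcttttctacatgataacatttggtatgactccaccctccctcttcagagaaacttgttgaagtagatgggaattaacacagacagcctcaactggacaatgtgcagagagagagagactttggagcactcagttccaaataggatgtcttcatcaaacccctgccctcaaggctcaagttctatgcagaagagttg

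Col11a1 held 2 GC boxes and 1 CCAAT box, Col8a2 4 GC boxes of which 2 overlap, Col6a6 2 GC boxes, and Col28a1 none of the 5 motifs. The Col28a1 window lies inside the RefSeq span of its gene, whose 5′ end is at chr6:8193709. It therefore does not cover the sequence at that end. The windows of Col11a1 and Col6a6 were placed on starts inside the spans of their genes, but do cover the 5′ ends of these spans. The GC box was found in 22 of the 35 collagen genes (62.9%), beside 38.2% of the 27025 genes with a window. The CCAAT box was found in 37.1% of them beside 41.1%, TATAAA in 14.3% beside 15.7%, CATTCC in 14.3% beside 16.6% and TGANTCA in 2.86% beside 8.97%. Of the called members with a window, the GC box was found in 6 of 8 that were higher and 1 of 2 that were lower. The median GC content was 59.8% in the collagen windows and 52.7% in all windows, and the GC box is itself made of these bases. A match is a description of the letters, not a site.

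Genes that make, process, bind or degrade collagen were mixed in direction. For synthesis and crosslinking, 24 genes were tested and none passed without the block (limma-voom, 5 at an unadjusted p under 0.05). With it, 3 were higher in CD34 negative CAFs and 2 lower, where 4.32% of all genes tested were higher and 4.25% lower. The higher ones were Loxl3, Loxl1 and P3h3, and the lower ones Loxl4 and Loxl2. Loxl3, an enzyme that crosslinks collagen, stood at 254, 582 and 359 CPM in CD34 negative and at 103, 321 and 110 CPM in CD34 positive CAFs (log2 fold change 1.34 ± 0.46; limma-voom adjusted p = 0.247, 0.00281 with the block). Its relative Loxl4 went the other way, at 14.2, 35.6 and 29.4 CPM against 36.5, 96.0 and 55.6 CPM (-1.36 ± 0.43; adjusted p = 0.214, 0.0031 with the block), so that members of the lysyl oxidase family differed in direction. The collagen chaperone Serpinh1, chosen after its values were seen, stood at 1482, 2007 and 1297 CPM against 923, 2167 and 1278 CPM and did not pass (limma-voom adjusted p with the block, 0.531).

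Of 8 tested genes of propeptide processing, 1 was higher and 2 were lower with the block, beside 4.32% and 4.25% of all genes tested. Adamts2, the protease that removes the amino propeptide of fibrillar collagens, stood at 1065, 1243 and 762 CPM in CD34 negative and at 408, 582 and 411 CPM in CD34 positive CAFs (1.14 ± 0.24; limma-voom adjusted p = 0.0975, 0.00199 with the block). Pcolce2, which enhances removal of the carboxy propeptide, stood at 8.39, 23.5 and 30.5 CPM against 105, 99.8 and 235 CPM (-2.99 ± 0.51; adjusted p = 0.0735, 0.000492 with the block). For both genes the groups did not overlap. Adamts14, a relative of Adamts2, was the other gene that was lower with the block (-0.91 ± 0.27; limma-voom adjusted p = 0.188, 0.0246 with the block).

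Of 8 tested receptors and uptake genes, 3 were higher and 1 was lower with the block. Of all genes tested, 4.32% were higher and 4.25% lower in that fit. The integrin chains Itga10 (0.94 ± 0.23 with the block, as the others here) and Itga11 (0.65 ± 0.15), and Mrc2, the receptor that takes up cleaved collagen (0.74 ± 0.12), were higher, with limma-voom adjusted p with the block of 0.0353, 0.0311 and 0.00781. Ddr2 is the receptor kinase for fibrillar collagen. It stood at 305, 269 and 300 CPM in CD34 negative and at 550, 468 and 788 CPM in CD34 positive CAFs, with no overlap. Its log2 fold change was -1.03 ± 0.22 without the block (limma-voom adjusted p = 0.0967) and -1.015 ± 0.148 with it (adjusted p = 0.00417). Among 9 collagenases and gelatinases, Mmp13 was higher (1.15 ± 0.26; adjusted p with the block 0.0255) and Fap lower (-0.83 ± 0.16; 0.0126), and the abundant Mmp2 and Mmp14, chosen after their values were seen, did not pass in limma-voom (0.208 and 0.297 with the block).

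Among 14 fibril-binding proteins, 3 were higher and 6 lower in CD34 negative CAFs with the block, beside 4.32% and 4.25% of all genes tested. Without the block, 2 passed, both lower in CD34 negative CAFs, beside 0.101% of all genes tested. Dpt, which encodes dermatopontin, stood at 316, 256 and 471 CPM in CD34 negative and at 1638, 1519 and 2704 CPM in CD34 positive CAFs (-2.49 ± 0.30; limma-voom adjusted p = 0.0414, 3.6e-05 with the block). Tnxb, which encodes tenascin-X, a protein that links collagen fibrils, stood at 287, 135 and 184 CPM against 867, 1015 and 1547 CPM (-2.53 ± 0.32; adjusted p = 0.0434, 0.000753 with the block). Neither overlapped between groups, and both were lower in all 3 tumors. Dcn, the small proteoglycan decorin, was lower with the block (-1.12 ± 0.13; limma-voom adjusted p = 0.00154). The higher ones were Fmod, the fibril-binding fibromodulin (2.08 ± 0.45; adjusted p with the block 0.0228), Bgn (0.99 ± 0.18; 0.0123) and Thbs2 (0.59 ± 0.14; 0.0354). Fmod stood at 694, 841 and 593 CPM against 364, 307 and 35.9 CPM, and like Col11a1, Col12a1, Col8a2 and Col10a1 it was lowest by far in the CD34 positive library of tumor 3.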

How the data were processed

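Poly(A) RNA of CD34 negative and CD34 positive CAFs of 3 tumors was sequenced (TruSeq RNA v2, NextSeq 500). The authors aligned reads to GRCm38 and deposited raw counts per NCBI gene (featureCounts in the submitters' processing notes); strand setting and multi-mapping were not given in the sources used here. Groups and tumor numbers came from the sample titles. The study's methods name filterByExpr, TMM and limma-voom but give no model formula, so the study's own fit and calls may differ. Here filterByExpr (minimum count 10), TMM and limma-voom compared the groups over all genes, two-sided, with Benjamini-Hochberg adjustment and threshold 0.05. Versions were edgeR 4.0.16, DESeq2 1.42.0 and limma 3.58.1 under R 4.3.3, and scripts were tested on simulated data. The 2 libraries of a tumor are paired: their deviations from group means correlated at 0.373, 0.350 and 0.219 for tumors 1, 2 and 3. A second fit therefore held the tumor as a block.

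Library totals were 59685694, 44864365 and 35310817 counts (CD34 negative, tumors 1, 2 and 3) and 16238059, 86609267 and 27204097 (CD34 positive), so 3 counts, the floor used, correspond to between 0.0346 and 0.185 CPM. No 2 libraries agreed within counting noise. Reads per kilobase used the gene lengths of the deposited table. Positions and promoters are those of RefSeq, GRCm38.p6, joined on gene ID. The members, classes and lists were chosen with earlier results of these data known. Values in each library are given for collagen genes called in either fit, the 4 most abundant per length, Col15a1, Col18a1 and the pairs of types I, IV and VI. Up to 3 called genes per direction are named from each other list. Alternatives covered tools, scaling, filter, weights, block, libraries and tumors. Protein sequences were not used here. Of the marker genes, 1 is part of the sums and has no value of its own here.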

Additional observations from a re-analysis of the deposited data

How the results depend on the processing

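With the replicate block in limma-voom 13 collagen genes passed in place of 0, with the tumor as a random effect 6, in edgeR with the block 4, in DESeq2 8 and in DESeq2 with the block 15. These fits called 8.57%, 4.73%, 3.87%, 4.7% and 11.7% of all genes tested, in the same order. Leaving out libraries or tumors gave 0 to 2 calls without the block and, for tumors, 12 to 18 with it, a median collagen log2 difference between 0.0904 and 0.6715, and a collagen share difference between -0.146 and 1.19 percentage points. Other scalings, TMM without the collagen genes, no low-count filter, sample weights and edgeR without the block gave 0 calls. Of the 13 genes called with the block, leaving out tumor 1 ended the call of Col10a1 and leaving out tumor 2 those of Col15a1, Col5a2 and Col23a1, with the values given above, and all 13 passed without tumor 3, with 1 residual degree of freedom. Col18a1 turned sign in edgeR (0.0122) and DESeq2 (0.0011) and ranged from -0.4471 to 0.0754 without libraries or tumors. The direction of the other 19 collagen genes described by library held under all alternatives. Col3a1 passed with the block without tumor 1, and Col4a1 without tumor 3. The CD34 negative library of tumor 3 lacked 161 genes although its total was not the lowest. The causes of these changes were not tested.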
